A study of Mus musculus with 12 samples.

Results

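The 9 genes described here encode the proteins that carry a photon signal from rhodopsin to the membrane current of a rod, together with rod arrestin. They were taken by symbol from the deposited tables: *Gnat1*, *Gnb1* and *Gngt1* for the 3 subunits of rod transducin, *Pde6a*, *Pde6b* and *Pde6g* for the rod phosphodiesterase, *Cnga1* and *Cngb1* for the cyclic nucleotide gated channel, and *Sag* for arrestin. Each symbol matched 1 row, 9 of the 55866 symbols in the table of scaled counts. RNA came from 2-month-old mice that carried a haemagglutinin-tagged ribosomal protein (RiboTag, an allele of *Rpl22*) switched on by a rod-specific Cre recombinase (i75-Rod-Cre, driven by the rhodopsin promoter). Controls had intact *Abca4*, and the *Abca4*Ko mice carried the same RiboTag and Cre with both copies of *Abca4* disrupted (*Abca4*-/-), so that tag and Cre were shared by all groups. All mice were perfused with cycloheximide, which holds ribosomes on mRNA. In each genotype 3 libraries were made from whole retinal lysate (retina) and 3 from the mRNA pulled down with tagged ribosomes (rod TRAP, translating ribosome affinity purification), which gave 12 libraries in 4 groups. Replicates are named by the numbers on the labels. Since no label says whether replicates were separate animals, p-values measure the spread between these libraries, which may in part be technical.

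In a dark-adapted rod, cyclic GMP keeps the channel in the outer segment membrane open and a cation current flows. Light turns rhodopsin into an activator of transducin, whose alpha subunit then relieves the inhibitory gamma subunit from the catalytic alpha and beta subunits of the phosphodiesterase. Cyclic GMP falls and the channel closes. Arrestin binds phosphorylated rhodopsin and ends its activity, so *Sag* belongs to the shut-off of the response. Loss of function of *Pde6b*, *Pde6a*, *Cnga1* or *Cngb1* is a known cause of rod degeneration, and *Gnb1*, unlike the other members, is also used by many other cell types. *Abca4* encodes a transporter that clears retinoids from the outer segment discs.

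Scaled counts, which are read counts multiplied by 1 factor per library so that the libraries of a fraction reach a common total, had totals of 17096515 to 17097707 in rod TRAP and 17860761 to 17862326 in retina. The spacing of the low values gave depths of 14.8 to 23.2 (in units of 1000000 reads) in the 11 libraries where it could be read. The lowest value of a member in any library was 3004 scaled counts, so counting error is small beside the spread between libraries. *Abca4* checked the labels. It stood at between 0.349% and 0.958% of the control mean in *Abca4*Ko replicates 1 and 2 of both fractions, but at 23.5% in rod TRAP and 21.3% in retina in the libraries labelled *Abca4*Ko replicate 3. The main comparisons of the members that include those libraries are therefore also given without them. This was not done for every ratio, list or correlation below. *Abca4*Ko retina replicate 1 also stood apart. Its share of scaled counts in mitochondrially encoded genes was 5.70%, against 1.84% to 3.17% in the other retina libraries, and its summed level of 8 bipolar cell markers was 578 TPM, against 816 to 1321 TPM. In *Abca4*Ko rod TRAP replicate 1 the mitochondrial share was 0.186%, against 0.047% to 0.062% in the other rod TRAP libraries. The 10 rod markers summed to between 36960 and 38120 TPM in rod TRAP and between 18520 and 23980 TPM in retina. The marker sums of other cell types were far lower in rod TRAP: 8 Müller glia markers summed to between 134 and 181 TPM there, against 3072 to 5980 TPM in retina, and 8 cone markers to between 453 and 698 TPM, against 1385 to 2216 TPM. No cone marker was listed at 0 in rod TRAP, so mRNA of cone genes was detected in every pull-down.

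Promoters are shown for 4 members because these genes, which share a cell type and a pathway, differ in how specific they are to rods and in how far their levels differed between rod TRAP and retina. The windows hold 250 bases before and 50 after the RefSeq start of each gene, on build GRCm38.p6, which is not the build of the deposited tables. RefSeq promoters were matched for 6 of the 9 members. Capitals mark the core motif of the photoreceptor homeobox factor CRX, TAATCC, and a half-site of the rod leucine zipper factor NRL, TGCTGA, searched on both strands, so that GGATTA marks a CRX core on the opposite strand. *Cnga1* lies at chr5:72642703-72643002 (minus strand), *Cngb1* at chr8:95306536-95306835 (minus strand), *Sag* at chr1:87803430-87803729 (plus strand) and *Gnb1* at chr4:155491111-155491410 (plus strand). The sequences read 5′ to 3′ in the direction of the gene.
Cnga1: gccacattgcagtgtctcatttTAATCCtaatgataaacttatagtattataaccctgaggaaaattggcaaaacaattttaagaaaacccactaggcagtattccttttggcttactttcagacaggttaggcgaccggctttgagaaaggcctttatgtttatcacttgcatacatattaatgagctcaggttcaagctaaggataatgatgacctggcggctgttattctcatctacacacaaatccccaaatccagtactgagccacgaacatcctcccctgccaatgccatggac
Cngb1: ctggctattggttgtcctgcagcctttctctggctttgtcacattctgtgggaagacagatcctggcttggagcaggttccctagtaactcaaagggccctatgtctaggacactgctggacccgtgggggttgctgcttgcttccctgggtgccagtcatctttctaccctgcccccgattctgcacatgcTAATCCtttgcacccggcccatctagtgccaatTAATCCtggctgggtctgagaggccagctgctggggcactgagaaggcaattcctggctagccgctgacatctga
Sag: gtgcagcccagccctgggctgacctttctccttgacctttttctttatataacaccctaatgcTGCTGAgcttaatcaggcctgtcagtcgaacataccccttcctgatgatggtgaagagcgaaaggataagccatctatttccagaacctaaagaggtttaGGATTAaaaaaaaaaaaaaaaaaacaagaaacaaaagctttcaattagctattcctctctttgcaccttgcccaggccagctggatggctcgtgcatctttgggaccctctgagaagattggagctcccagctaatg
Gnb1: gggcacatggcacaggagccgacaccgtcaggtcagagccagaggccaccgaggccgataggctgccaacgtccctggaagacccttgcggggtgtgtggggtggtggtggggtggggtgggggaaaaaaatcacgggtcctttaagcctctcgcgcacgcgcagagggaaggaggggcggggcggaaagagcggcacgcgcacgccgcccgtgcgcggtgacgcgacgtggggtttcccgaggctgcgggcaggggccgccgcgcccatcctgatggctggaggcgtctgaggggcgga
The CRX core was found once in *Cnga1*, at 2 places in *Cngb1*, and once in *Sag*, which also held the NRL half-site. *Gngt1* held 1 CRX core and *Pde6b* 1 NRL half-site. *Gnb1*, the member with the widest use, held neither in this window, and its window was the richest in G and C (70.3%, against 41.3% for *Cnga1*). Among all 32851 windows of this length, 7.06% held the CRX core, 19.5% the NRL half-site and 1.36% both. These are matches of letters only.

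The members were among the most abundant mRNAs of rod TRAP, and all but *Cnga1* were also among those of retina. Together they made up 9.03% to 9.45% of all TPM in rod TRAP and 3.87% to 5.19% in retina. TPM is a level corrected for transcript length and for the library, so it can be compared between genes. *Gnat1*, the transducin alpha subunit, had the highest TPM of the 9 in all groups, at 31232 ± 212 TPM (SD, n = 3) in control rod TRAP, where it ranked 2 among all genes. *Gnb1* followed with 18315 ± 411 TPM and *Gngt1* stood at 5019 ± 222 TPM, so the levels of the 3 transducin mRNAs were not equal. *Sag* (13830 ± 901 TPM) and *Pde6g*, the inhibitory phosphodiesterase subunit (12883 ± 147 TPM), were neighbours whose libraries overlapped. The catalytic subunits lay lower, with *Pde6b* at 3999 ± 181 TPM and *Pde6a* at 3304 ± 153 TPM. The channel subunits were the least abundant, with *Cngb1* at 1988 ± 114 TPM and *Cnga1* at 1582 ± 31.1 TPM. In control rod TRAP only *Sag* and *Pde6g* overlapped among neighbours in this order. In *Abca4*Ko rod TRAP the order was the same, and only *Gnb1* and *Sag* overlapped.

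**Figure D1:**
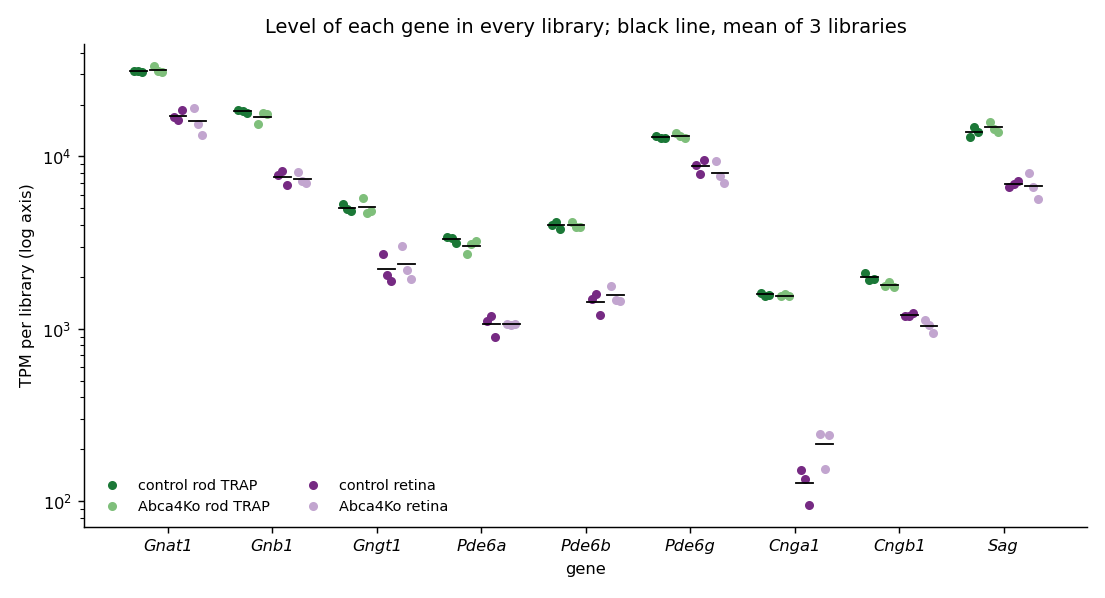
Level of each of the 9 genes (TPM, log axis) in the 12 libraries, coloured by group, with a black line at the mean of the 3 libraries. *Gnat1* is highest in every group, and *Cnga1* falls farthest between rod TRAP (1582 TPM in control) and retina (127 TPM in control).

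In whole retina the order differed from that in rod TRAP at 2 places in control and at 1 in *Abca4*Ko mice. *Pde6g* came second, at 8778 ± 837 TPM in control retina, but its libraries overlapped those of *Gnb1* (7623 ± 737 TPM), which in turn overlapped those of *Sag* (6933 ± 240 TPM). *Cngb1* (1205 ± 29.5 TPM) stood above *Pde6a* (1060 ± 148 TPM) in control retina, whereas in *Abca4*Ko retina it did not, and the libraries of these genes overlapped. *Pde6b* and *Cngb1* libraries overlapped in control retina. *Cnga1* was last. It ranked 49 among all genes in control rod TRAP but 1167 in control retina, while the other 8 members ranked between 2 and 118 there.

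The first comparison asked how far the mRNA on rod ribosomes differs from the mRNA of the whole retina in control mice. Differences are on the scale of log2(CPM + 0.5), where CPM is the scaled count relative to the library total after a further rescaling of the libraries, and a gene is called where limma gives a Benjamini-Hochberg adjusted p under 0.05. They can therefore differ from the ratio of the TPM values. Each of the 9 genes was higher in rod TRAP, with limma adjusted p between 3.29e-10 and 7.42e-05. Of all 16286 genes tested, 36.6% were called higher in rod TRAP. The log2 differences ran from 0.88 for *Pde6g* to 3.98 for *Cnga1*, with a median of 1.51, against -0.029 over all genes. The share of rod mRNA in a fraction and the share of each mRNA bound to ribosomes cannot be told apart here. The RNA input to cDNA synthesis also differed between the fractions (10 ng for rod TRAP and 5 ng for lysate).

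Among the transducin subunits, *Gnat1* stood at 31141, 31475 and 31081 TPM in control rod TRAP replicates 1 to 3, and at 16966, 16283 and 18525 TPM in control retina. The libraries of the fractions did not overlap, and the log2 difference was 1.17 (SE 0.13). *Gnb1* stood at 18640, 18451 and 17853 TPM in rod TRAP and at 7844, 8224 and 6801 TPM in retina, a log2 difference of 1.62 (SE 0.11). *Gngt1*, the rod gamma subunit, had a log2 difference of 1.51 (SE 0.16), with 5271, 4932 and 4853 TPM in rod TRAP and 2726, 2054 and 1895 TPM in retina. *Gnb1* has pseudogene copies in the table, and how reads that fit several places were assigned is not given in the sources used here.

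*Pde6a* stood at 3400, 3384 and 3128 TPM in control rod TRAP and at 1103, 1181 and 895.1 TPM in control retina (log2 difference 1.97, SE 0.11). *Pde6b* stood at 4023, 4166 and 3808 TPM and at 1487, 1581 and 1209 TPM (log2 difference 1.80, SE 0.11). On the rescaled CPM scale the catalytic subunits were 3.91-fold and 3.49-fold as high in rod TRAP, and in mean TPM 3.12-fold and 2.80-fold. *Pde6g* stood at 13052, 12791 and 12806 TPM in rod TRAP and at 8923, 7879 and 9534 TPM in retina, and its log2 difference was the smallest of the 9 (0.88, SE 0.14), or 1.84-fold. With the scaling of the authors alone, under which the median of all genes moves to -0.621, the difference of *Pde6g* was 0.23 (adjusted p = 0.0780), the other 8 were still called, and relative to that median *Pde6g* stood at 0.85.

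The largest difference of the 9 was that of *Cnga1*, the pore-forming channel subunit. It stood at 1615, 1553 and 1577 TPM in control rod TRAP and at 150.5, 134.3 and 95.1 TPM in control retina. The log2 difference was 3.98 (SE 0.15), or 15.7-fold with a 95% interval of 12.6 to 19.7. That interval holds for 1 rescaling of the libraries. In mean TPM the difference was 12.5-fold. With the scaling of the authors alone the log2 difference was 3.33, or 3.95 relative to the median of all genes. *Cnga1* ranked 16 of 16286 genes tested, whereas the other 8 members ranked between 1305 and 3791. Its partner *Cngb1*, the modulatory subunit, stood at 2118, 1906 and 1941 TPM in rod TRAP and at 1193, 1184 and 1239 TPM in retina (log2 difference 1.25, SE 0.11). *Cngb1* also yields short transcripts for the glutamic acid-rich GARP proteins, which a value per gene does not separate. *Sag* stood at 12963, 14761 and 13765 TPM in rod TRAP and at 6683, 6953 and 7162 TPM in retina (log2 difference 1.31, SE 0.12).

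In *Abca4*Ko mice the comparison of fractions gave the same direction for each of the 9 genes, with wider errors. All 9 were called higher in rod TRAP, with limma adjusted p between 1.49e-06 and 0.00754, where 30.4% of the 16036 genes tested were called higher. The log2 differences ran from 0.97 (SE 0.26) for *Pde6g* to 3.14 (SE 0.25) for *Cnga1*, and the other 7 lay between 1.16 for *Cngb1* and 1.76 for *Pde6a*. *Cnga1* again stood apart, at 8.80-fold with a 95% interval of 6.02 to 12.9. Without both libraries labelled *Abca4*Ko replicate 3, 8 of the 9 were called, and *Pde6g* had a log2 difference of 0.81 (adjusted p = 0.0758). Without both *Abca4*Ko replicate 1 libraries all 9 were called. With the scaling of the authors alone, *Pde6g* was at 0.43 (adjusted p = 0.0616).

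**Figure D2:**
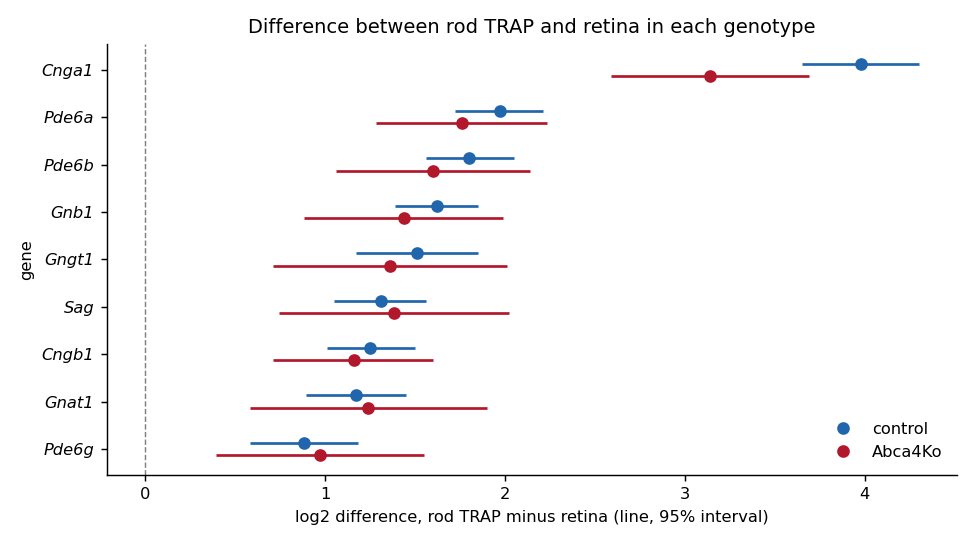
Log2 difference between rod TRAP and retina for each of the 9 genes in control (blue) and *Abca4*Ko (red) mice, with 95% intervals. Every interval lies above 0, and *Cnga1* (3.98 in control, 3.14 in *Abca4*Ko) lies beyond the intervals of the other 8 genes.

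Proteins that act in fixed complexes allow a second reading of the same data, the ratio between subunit mRNAs within a library, which does not depend on how libraries were scaled. In all, 6 ratios of TPM were compared between the 6 rod TRAP and the 6 retina libraries, both genotypes together, by a two-sided exact permutation test of the mean log2 ratio with p-values adjusted over the 6 ratios. The *Cngb1* to *Cnga1* ratio was 1.31, 1.23 and 1.23 in control rod TRAP and 1.14, 1.18 and 1.14 in *Abca4*Ko rod TRAP, but 7.92, 8.82 and 13.0 in control retina and 4.55, 6.83 and 3.88 in *Abca4*Ko retina. The fractions did not overlap, and the mean ratio was 5.75 times as high in retina (exact permutation p = 0.00216, the smallest that 6 against 6 libraries can give, adjusted p = 0.00649). The channel subunit mRNAs were thus closer to equal on rod ribosomes than in the lysate. Without both *Abca4*Ko replicate 3 libraries the call held (exact permutation, adjusted p = 0.0238). With libraries of the same replicate number paired, the adjusted p was 0.0312 (exact sign-flip over 6 pairs). That is the smallest this test can give, and all 6 ratios reached it.

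The ratio of *Pde6g* to the sum of *Pde6a* and *Pde6b* also separated the fractions. It was 1.76, 1.69 and 1.85 in control rod TRAP and 1.99, 1.87 and 1.79 in *Abca4*Ko rod TRAP. In retina it was 3.44, 2.85 and 4.53 in control and 3.31, 3.07 and 2.79 in *Abca4*Ko mice, so the mean was 1.80 times as high as in rod TRAP (exact permutation p = 0.00216, adjusted p = 0.00649). This call, too, held without both *Abca4*Ko replicate 3 libraries (exact permutation, adjusted p = 0.0238). In the paired test its adjusted p was 0.0312 (exact sign-flip). The catalytic subunits kept closer to each other: the *Pde6b* to *Pde6a* ratio averaged 1.26 in rod TRAP and 1.40 in retina. That difference did not pass the test (exact permutation, adjusted p = 0.0714), but did when libraries of the same replicate number were paired (exact sign-flip over 6 pairs, adjusted p = 0.0312, the smallest that test can give).

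Within transducin the shifts were smaller. The *Gnb1* to *Gnat1* ratio averaged 0.558 in rod TRAP and 0.455 in retina (exact permutation, adjusted p = 0.0260), with overlapping libraries, and this call was lost when control rod TRAP replicate 1, control rod TRAP replicate 2 or control retina replicate 3 was left out (adjusted p = 0.0519 in each case). The *Gngt1* to *Gnat1* ratio averaged 0.160 and 0.138 (exact permutation, adjusted p = 0.0545, and 0.0312 in the paired test). The *Sag* to *Gnat1* ratio averaged 0.452 in rod TRAP and 0.413 in retina (exact permutation, adjusted p = 0.0216), a difference of 1.09-fold between libraries that overlapped.

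**Figure D3:**
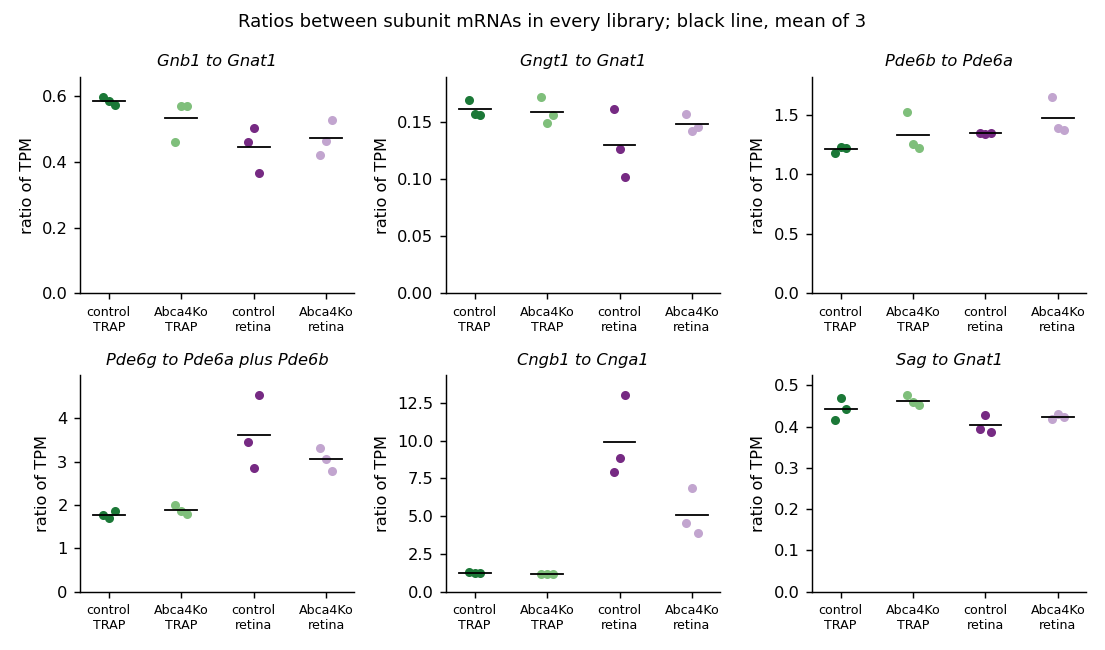
Ratio of TPM between pairs of members in each of the 12 libraries, 1 panel per ratio with the axis starting at 0, and a black line at the mean of the 3 libraries. The *Cngb1* to *Cnga1* ratio and the ratio of *Pde6g* to *Pde6a* plus *Pde6b* separate rod TRAP from retina, and the other 4 ratios overlap.

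The next comparison asked whether the loss of *Abca4* went with a change of these mRNAs on rod ribosomes. None of the 9 was called in rod TRAP by limma, and none had an unadjusted p under 0.05, while 1.13% of the 13104 genes tested were called. The same fit did not call *Abca4* itself (log2 fold change -5.79, SE 1.81, limma adjusted p = 0.413). A gene that was not called is therefore not shown to be unchanged. *Sag* had the largest log2 fold change in size (0.15, 95% interval -0.12 to 0.43) and *Cngb1* the lowest (-0.09, 95% interval -0.29 to 0.10), with adjusted p of 0.733 and 0.767. Over the 9 genes the 95% intervals together spanned -0.29 to 0.43, or 0.820-fold to 1.35-fold, so changes beyond that lay outside the interval of each gene. *Gnat1* stood at 33494, 31297 and 30819 TPM in *Abca4*Ko rod TRAP, against 31081 to 31475 TPM in control. *Cnga1* stood at 1556, 1581 and 1539 TPM, against 1553 to 1615 TPM. No member had groups that were apart on the CPM scale, where the groups of 17.6% of all genes tested did not overlap. In TPM the groups were apart for *Cngb1* only, at 1773, 1861 and 1753 TPM in *Abca4*Ko against 2118, 1906 and 1941 TPM in control, where 13.3% of all genes did not overlap.

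*Abca4*Ko rod TRAP replicate 1 stood apart from the other libraries of its group, in that all 9 members stood above the mean of the other 2 libraries on the CPM scale, by 1.03-fold to 1.48-fold. That holds on this scale only: 7 of the 9 stood above in scaled counts and 5 in TPM, where *Gnb1* and *Pde6a* were lower than in either other library. *Sag* showed this most plainly among the abundant members, at 15171, 11235 and 10813 CPM, against 10279, 11694 and 11113 CPM in control. Without that library 8 of the 9 log2 fold changes were below 0, the lowest at -0.14, *Sag* stood at 0.00, and *Gngt1* and *Cngb1* had an unadjusted p under 0.05, with a lowest adjusted p of 0.221 among the 9 genes. Without the library labelled *Abca4*Ko rod TRAP replicate 3 they ran from -0.08 to 0.24, and none was called.

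In whole retina no member was called between genotypes either, where limma called 0.106% of 16964 genes, and no member had groups apart in CPM, against 19.9% of all genes. *Abca4* itself was not called there (log2 fold change -5.60, SE 1.59, limma adjusted p = 0.40). The standard errors were larger than in rod TRAP for each member, and for 8 of the 9 genes the log2 fold change lay between -0.12 and 0.14. *Gnat1* stood at 19200, 15451 and 13345 TPM in *Abca4*Ko retina, against 16966, 16283 and 18525 TPM in control. Its highest library was *Abca4*Ko retina replicate 1, where all 9 members exceeded the mean of the other 2 libraries on the CPM scale, by 1.39-fold to 2.01-fold. That is the library with 5.70% mitochondrial counts and fewer bipolar and Müller glia markers. The part of these in the members' levels was not tested. Without it the log2 fold change was below 0 for 8 of the 9 genes, between -0.38 for *Pde6g* and -0.09 for *Pde6b*, and without the library labelled *Abca4*Ko retina replicate 3 it was above 0 for all 9. No member was called in either case. In bulk retina, a difference in rod number and a difference in mRNA per rod cannot be told apart.

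*Cnga1* was the exception in size. It stood at 246.2, 153.5 and 243.4 TPM in *Abca4*Ko retina, against 150.5, 134.3 and 95.1 TPM in control, so that all 3 *Abca4*Ko libraries were above the control libraries in TPM, a scale on which the groups of 10.8% of all genes were apart. In CPM they overlapped, at 519, 247 and 357 against 267, 201 and 173. The log2 fold change was 0.77 (SE 0.27, 95% interval 0.17 to 1.36), with an unadjusted limma p of 0.0170 and an adjusted p of 0.40. It is not a call. Over 14 alternatives it lay between 0.51 and 1.03, with adjusted p from 0.104 to 0.937. Without the library labelled replicate 3 it was 0.77 (adjusted p = 0.648), and without *Abca4*Ko retina replicate 1 it was 0.51 (adjusted p = 0.468). In rod TRAP, *Cnga1* had a log2 fold change of 0.04 (95% interval -0.17 to 0.25). *Cngb1* was the other member whose retina groups were apart in TPM, in the opposite direction, at 1121, 1048 and 943.4 TPM in *Abca4*Ko against 1193, 1184 and 1239 TPM in control. In scaled counts these libraries overlapped, at 26981, 23229 and 21896 against 27206, 25318 and 25367. With log2(TPM + 1) the log2 fold change of *Cngb1* was -0.22 in retina and -0.15 in rod TRAP (limma adjusted p = 0.785 and 0.621). On the CPM scale it was -0.11 and -0.09.

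**Figure D4:**
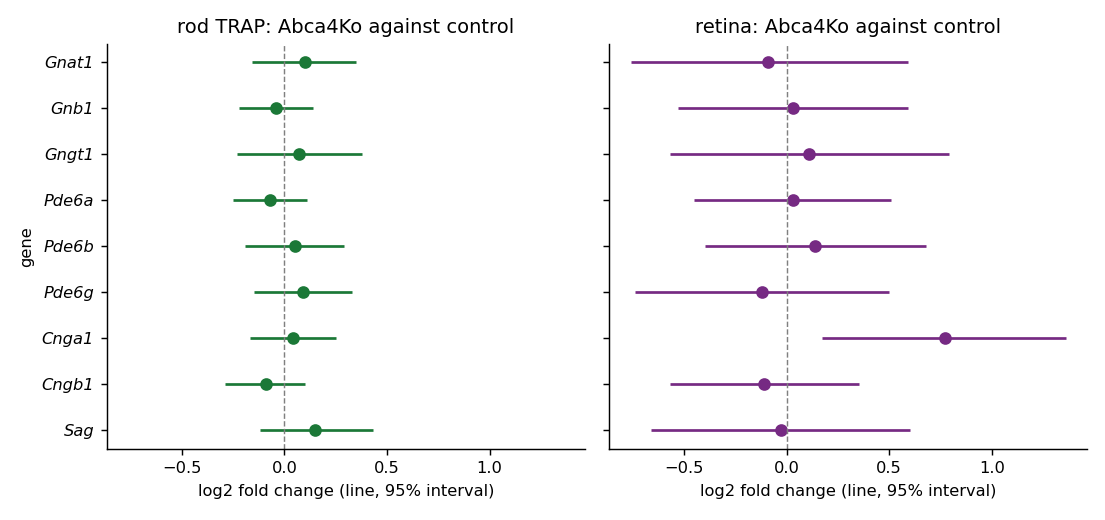
Log2 fold change of each of the 9 genes between *Abca4*Ko and control mice, in rod TRAP (left) and retina (right), with 95% intervals on a common axis. Intervals in rod TRAP are narrow and include 0 for all 9 genes, and in retina only that of *Cnga1* (0.17 to 1.36) leaves out 0.

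The subunit ratios gave no call between genotypes, since 3 against 3 libraries cannot go below an exact permutation p of 0.10. The *Cngb1* to *Cnga1* ratio shifted most in retina, where it was 9.92 ± 2.73 in control and 5.09 ± 1.55 in *Abca4*Ko mice (SD, n = 3). Its libraries did not overlap (exact permutation p = 0.10, adjusted p = 0.30 over 6 ratios). In rod TRAP the same ratio was 1.26 ± 0.0477 in control and 1.15 ± 0.0218 in *Abca4*Ko mice, also without overlap (exact permutation p = 0.10, adjusted p = 0.30). Neither difference is a call. The other ratios that did not overlap between genotypes were *Gnb1* to *Gnat1* in rod TRAP, at 0.586 and 0.534, and *Pde6b* to *Pde6a* in retina, at 1.35 and 1.47 in control and *Abca4*Ko mice.

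The difference of the genotype effect between fractions was tested with an interaction term over all 12 libraries. No member was called, where 0.00579% of 17273 genes, or 1 gene, *Pcsk6*, was. The interaction of *Cnga1* was -0.75 (SE 0.31), with an unadjusted limma p of 0.0294 and an adjusted p of 0.417. The other 8 members lay between -0.12 and 0.18. This comparison shares its libraries with the comparisons above, and *Cnga1* in control retina enters both its high fraction difference and its genotype difference in retina. Without both libraries labelled *Abca4*Ko replicate 3 the interaction of *Cnga1* was -0.72 (adjusted p = 0.708). Without control retina replicate 3 it was -0.60 (limma adjusted p = 0.858).

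Base composition moved with these differences. Across 13315 of 16279 genes that could be matched by symbol to a GENCODE M21 protein-coding transcript, the GC content of the longest transcript correlated with the difference between rod TRAP and retina in control mice (Pearson r = -0.443, over genes that share the same 6 libraries and are not independent). The members held between 35.8% GC (*Gngt1*) and 55.8% GC (*Pde6g*). *Cnga1* had 42.6% GC, and the bin it fell in, of 10 equal bins of genes by GC content (42.0% to 44.5% GC), had a median log2 difference of 1.13, with quartiles at 0.00 and 1.97, all below the 3.98 of *Cnga1*. *Pde6g* fell in a bin with a median of -0.43. Apart from *Gngt1*, at 1.51 against a median of 1.80, each member lay above the upper quartile of its bin in that comparison. Between genotypes in retina the correlation with GC content was -0.625 (Pearson r over 13669 genes), and the bin that held *Cnga1* had a median log2 fold change of 0.39, with quartiles at 0.18 and 0.56. In rod TRAP it was 0.0791. The part of base composition in the values of *Cnga1* and *Pde6g* was not tested.

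**Figure D5:**
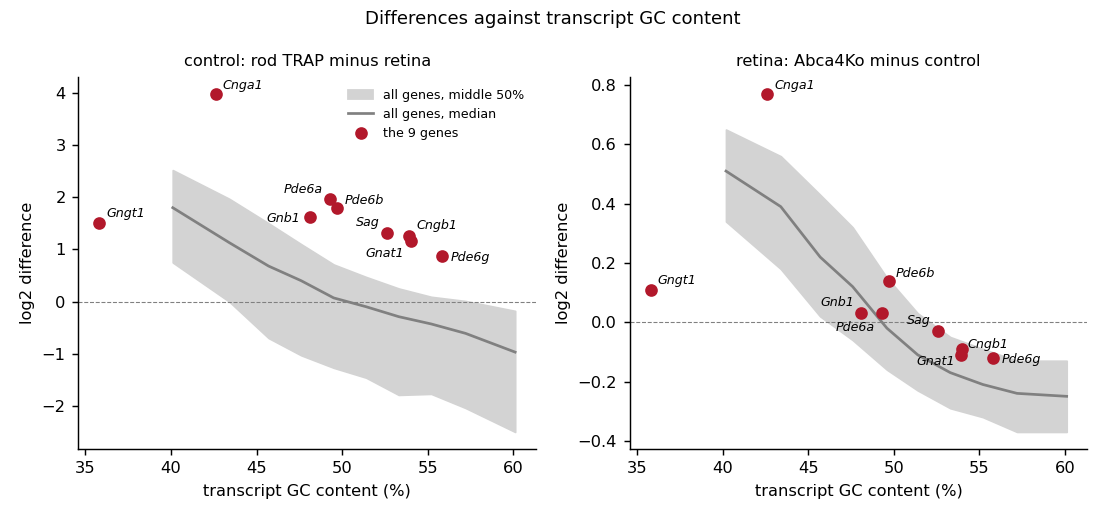
Log2 difference against transcript GC content (percent) for the 9 genes (red points), with the median (line) and the quartiles (band) of all genes in 10 bins of GC content, drawn at the median GC of each bin. Left, control rod TRAP minus retina, where *Cnga1* (3.98) is far above the band. Right, *Abca4*Ko minus control in retina, where the median of all genes runs from 0.51 in the bin lowest in GC to -0.25 in the highest.

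Other genes of the pathway put these values in context. Of 10 further genes of rod signalling and recovery, all were called higher on rod ribosomes in control mice, against 36.6% of all genes, with a median log2 difference of 1.40. They ran from 0.63 for *Guca1a*, a calcium-sensing activator of guanylate cyclase that cones also use, to 3.84 for *Gucy2f*, a guanylate cyclase that restores cyclic GMP. Under the authors' scaling alone *Guca1a* was at -0.01. The value of *Gucy2f* is close to that of *Cnga1*, so *Cnga1* was not the only rod gene with a difference of that size. All 10 were also called higher in *Abca4*Ko mice, against 30.4% of all genes. Of 9 genes for assembly and transport of these proteins, 8 were called higher in control (36.6% of all genes) and 7 in *Abca4*Ko mice (30.4% of all genes), among them *Rp2*, which acts on the small GTPase that unloads lipid-modified cargo (log2 difference 3.06 in control). *Ric8a*, a chaperone of G protein alpha subunits in many tissues, was not called (-0.09), but was called lower with the authors' scaling alone (-0.73) and with log2(TPM + 1) (-0.50).

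The counterparts of the members in cones went the other way. Of 8 such genes 7 were called lower in control rod TRAP, where 38.8% of all genes were, and *Gngt2*, the cone transducin gamma subunit, was lowest (-2.26). *Cngb3*, a cone channel subunit, was called higher (0.88), but not with the authors' scaling alone (0.30, limma adjusted p = 0.176) or with log2(TPM + 1) (0.45, limma adjusted p = 0.0582). In *Abca4*Ko mice 6 were called lower, against 33.7% of all genes, and *Cngb3* was again higher. Of 11 G protein subunit genes used outside phototransduction that could be tested, 10 were lower in control rod TRAP, and only *Gnaq* was higher (1.45). The lowest was *Gng13*, a gamma subunit of ON bipolar cells (-5.62). It passed the filter on low values only through its retina libraries, where it was high, so its call is not independent of the filter. The genes tested fell from 16286 to 13446 without control retina replicate 1, so part of the 38.8% called lower passed in the same way. In *Abca4*Ko mice 9 of the 11 G protein genes were lower and *Gnaq* was again higher. In control mice *Gnb1*, at 1.62, thus differed in direction from the beta subunit genes of that list, *Gnb2* (-2.26) and *Gnb4* (-0.99). *Gnb4* stood at only 0.1 to 0.7 TPM in control rod TRAP, and *Gnb2* was not called in *Abca4*Ko mice (-1.61, limma adjusted p = 0.248). Among beta subunit genes of the other lists, *Gnb5* was called higher in control rod TRAP, like *Gnb1* (1.14), and *Gnb3* of cones lower (-0.68).

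Between genotypes, none of the 10 rod genes, the 9 assembly genes or the other G protein genes tested (10 in rod TRAP and 11 in retina) was called in either fraction. In retina the 10 rod genes ran from -0.24 (*Guca1b*) to 0.72 (*Gucy2f*), with a median of 0.02. The 9 assembly genes ran from -0.25 (*Ric8a*) to 0.85 (*Rp2*), with a median of -0.02. The 0.77 of *Cnga1* was thus not the only rise of that size. In the interaction these lists ran from -0.80 (*Gucy2f*) to 0.35 and from -0.74 (*Pdcl*) to 0.27, without a call, against -0.75 for *Cnga1*. Of the 8 cone genes, *Gngt2* rose in *Abca4*Ko rod TRAP (log2 fold change 0.69, SE 0.12, limma adjusted p = 0.0224). It passed the test in 8 of 14 alternatives, and its adjusted p ran from 0.00239 to 0.147 when single libraries were left out, highest without control rod TRAP replicate 1. The 8 cone markers are another list, which shares genes with this one and holds *Gngt2* itself. Their summed TPM was 564, 698 and 641 in *Abca4*Ko and 475, 453 and 459 in control rod TRAP, without overlap. The 8 cone genes summed to 430.6, 568.2 and 538.2 TPM in *Abca4*Ko and 495.1, 411.5 and 390.2 TPM in control rod TRAP, with overlap. In retina the marker sum went the other way, at 1385, 1866 and 1709 TPM in *Abca4*Ko and 2216, 1898 and 2191 TPM in control. These libraries again did not overlap. The sum of the 8 cone genes was lower there too, at 926.4, 1377 and 1247 TPM against 1574, 1399 and 1532 TPM. The part of these sums in the value of *Gngt2* was not tested. None of the cone genes was called in retina.

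The members were correlated with each other. The same figure was not computed for other sets of genes, so whether it is particular to the members was not tested. Over the 12 libraries, the 36 pairs of members had correlations of log2 CPM between 0.875 and 0.995, with a median of 0.968, which includes the gap between fractions. After the group means were removed they ran from 0.510 to 0.990, with a median of 0.863, and *Cnga1* was least like the mean profile of the 9 (r = 0.756), against 0.912 to 0.966 for the other 8. Each member is itself part of that mean profile. On the CPM scale all 9 stood high in both *Abca4*Ko replicate 1 libraries, and the part of those libraries in the correlations was not tested. Among 10249 genes with a mean of at least 5 TPM, those most like the mean profile over 12 libraries were *Ano2*, *Sec14l2*, *Cpe*, *Mpp4* and *Cds1*, with r between 0.995 and 0.998. After removal of group means they were *Ano2*, *Faim*, *Mpp4*, *Cds1* and *AI847159*, with r between 0.981 and 0.994. *Ano2*, a calcium-activated chloride channel of the photoreceptor terminal, came first in both lists.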

How the data were processed

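RNA from retinal lysate (5 ng) and rod TRAP (10 ng) was converted with a low-input kit and sequenced. The authors deposited 1 table of a score, named scaled count here (counts multiplied by 1 factor per library and rounded, as read from the values), and 1 table of TPM. The processing notes of the authors name CASAVA 1.8.2, HISAT2, DESeq2, edgeR and GRCm39, without roles; annotation and handling of multi-mapped reads are not given in the sources used here. As scores are not raw counts, limma 3.58.1 (trend, robust, R 4.3.3) was run on log2(CPM + 0.5) after rescaling by a trimmed mean of M values (trims 0.3 and 0.05) in place of the planned count test, over genes with at least 10 scaled counts in 3 libraries, with Benjamini-Hochberg adjusted p under 0.05 as a call. Intervals are the 95% intervals of those fits. Ratios were tested in Python 3.11.15 with scipy 1.17.1. On simulated data, 50 genes were changed at each size. The fit found 38 of 50 changes of 1.5-fold and 50 of 50 of 2-fold in the rod TRAP genotype comparison (12949 genes). In the deposited rod TRAP libraries the same fit did not call *Abca4* (log2 fold change -5.79, limma adjusted p = 0.413). How many changes of these sizes it would find in the deposited libraries, some of which stood apart, was not tested.

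Same-numbered rod TRAP and retina libraries deviated together (r between 0.160 and 0.433 over 6 pairs) and were treated as pairs in the alternative. All 9 members, the *Abca4* check, the extremes and calls of each list and the 5 genes most like the members are named, for the lists in the control fraction comparison and in the genotype comparisons. Other genes named were chosen after their values were seen. Members and lists were chosen with earlier results of these data known. *Gnb1* read sharing and *Cngb1* isoforms were not resolved.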

Additional observations from a re-analysis of the deposited data

How the results depend on the processing

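The number of members called, 0 of 9 in each genotype comparison and in the interaction and 9 of 9 in each fraction comparison, was 0 in all alternatives of the former and 8 or 9 in those of the latter. The replicate block changed no call of a member (9 members called in both fraction comparisons, 0 in the others). Counts over all genes moved more: in the rod TRAP genotype comparison 148 genes were called, but 58 with log2(TPM + 1), 42 without trend and robust fitting, 94 in 1 fit of all 12 libraries, and 30 to 594 with 1 library left out (594 without *Abca4*Ko replicate 1, 36, 30 and 33 without control replicates 1, 2 and 3). In retina the count was 18, and 12 to 62 under the other settings (46 with the replicate block, although the numbers did not pair the genotypes, r between -0.394 and 0.0120), or 1 to 21 with 1 library left out. With the authors' scaling alone, 3415 genes were higher and 9549 lower in control rod TRAP, against 5968 and 6317, and 2282 and 7814 against 4872 and 5408 in *Abca4*Ko. With log2(TPM + 1) these splits were 3868 higher and 6297 lower, and 2747 and 4621. In *Abca4*Ko the 10280 genes called became 6595 without *Abca4*Ko retina replicate 2 and 5716 without both *Abca4*Ko replicate 3 libraries. The interaction called 3 genes with log2(TPM + 1), against 1.

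Members that were not called changed sign in some settings, and the cause was not tested. Between genotypes in rod TRAP, log2(TPM + 1) gave -0.01 for *Pde6b* and -0.02 for *Cnga1*, and leaving out single libraries gave -0.04 to 0.17 for *Gnat1*, -0.12 to 0.17 for *Gngt1*, -0.07 to 0.11 for *Pde6b*, -0.04 to 0.16 for *Pde6g* and -0.06 to 0.09 for *Cnga1*. In retina, log2(TPM + 1) gave -0.03 for *Gnb1*, and single libraries left out gave -0.37 to 0.15 for *Gnat1*, -0.19 to 0.19 for *Gnb1*, -0.22 to 0.36 for *Gngt1*, -0.12 to 0.14 for *Pde6a*, -0.09 to 0.30 for *Pde6b*, -0.38 to 0.09 for *Pde6g*, -0.28 to 0.01 for *Cngb1* and -0.31 to 0.20 for *Sag*. For the interaction these ranges were -0.10 to 0.42 for *Gnat1*, -0.27 to 0.10 for *Gnb1*, -0.32 to 0.24 for *Gngt1*, -0.25 to 0.00 for *Pde6a*, -0.29 to 0.09 for *Pde6b*, -0.04 to 0.42 for *Pde6g*, -0.14 to 0.13 for *Cngb1* and -0.09 to 0.41 for *Sag*. Left out after the data were seen, both replicate 3 libraries of *Abca4*Ko gave -0.04 for *Gnat1* and -0.01 for *Sag*, and both replicate 1 libraries gave 0.11 for *Gnb1*, 0.09 for *Gngt1*, 0.01 for *Pde6a* and 0.12 for *Cngb1*. *Cngb1* was 0.01 with the authors' scaling alone and 0.07 with log2(TPM + 1).

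Among log2 differences of ratios between fractions, *Gngt1* to *Gnat1* passed with scaled counts (0.23) and the replicate block (0.22), with 0.13 to 0.26 when single libraries were left out, and *Pde6b* to *Pde6a* passed with scaled counts (-0.16), the block (-0.15) and both *Abca4*Ko replicate 1 libraries left out (-0.16), with -0.20 to -0.10. *Gnb1* to *Gnat1* ran from 0.23 to 0.35. Between genotypes *Gngt1* to *Gnat1* in rod TRAP ran from -0.08 to 0.03 and *Gnb1* to *Gnat1* in retina from -0.04 to 0.19. *Guca1a* between fractions was -0.01 with the authors' scaling alone.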
